A study of Tupaia belangeri with 2 samples.

Results

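SFRP1, FZD10, FST and CNPY1 encode proteins that tune how neural progenitor cells receive Wnt, activin and fibroblast growth factor (FGF) signals, and they were followed here in the embryonic brain of the tree shrew (Tupaia belangeri). They are 4 of the 18543 gene names in the annotation of 23975 gene models, and each was carried by 1 model. The 4 genes were chosen by their levels across progenitor groups in these same libraries, so their levels are given as a description with no test. The data came from the whole brains of 2 embryos at 4 to 5 postconception weeks (pcw), each captured in 1 droplet library of the 10x Chromium 3′ kit. No genotype, strain or treatment was labelled, and it is not stated whether both embryos came from 1 litter. The values are counts of unique molecular identifiers (UMIs), each of which marks 1 captured transcript, and a level is given as UMIs of the gene per 1000000 UMIs of a group of cells (CPM). Brackets hold exact 95% Poisson intervals, which cover counting error only, whereas the difference between the embryos holds the animal and the library together.

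In the early brain, regional organisers secrete signals that set the identity and the growth of the progenitors around them. Wnt proteins act through Frizzled receptors on the cell surface. FZD10 is such a receptor, whereas SFRP1 is a secreted protein with a Frizzled-like domain that binds Wnts outside the cell. FST (follistatin) is a secreted protein that traps activins and some bone morphogenetic proteins (BMPs). CNPY1 (canopy) is known from the zebrafish as a regulator of FGF signalling at the boundary between midbrain and hindbrain, the isthmus, where FGF8 is made and where the transcription factors EN1 and EN2 are active. PAX3 and PAX7 mark the dorsal neural tube, which includes the roof of the midbrain, and the DLX genes mark the ganglionic eminences of the telencephalon.

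After barcodes with under 200 genes detected were left out, 8408 cells of embryo 1 (median of 3539 UMIs) and 9327 cells of embryo 2 (median of 3169) remained. The cells fell into 16 clusters, 12 of which were named from marker genes, and 17 barcodes occurred in both libraries. Cells of the radial glia-like and the dividing cell-like clusters were taken as progenitors, 2546 cells in embryo 1 and 2065 in embryo 2, with medians of 4274 and 4419 UMIs. Haemoglobin transcripts, which belong to red blood cells, made up 1.52% and 0.541% of the progenitors' UMIs. Progenitors were placed in regional groups by transcription factor transcripts alone. The midbrain or isthmus group had a UMI of EN1, EN2, PAX2, PAX5, PAX8, PAX3 or PAX7 (369 and 353 cells). The telencephalic group had a UMI of a telencephalic transcription factor gene that is not named here (142 and 95 cells). EMX1, the other gene listed for it, was absent from the annotation. The ganglionic eminence group had a DLX gene or GSX2 (289 and 397 cells). In 2894 of the 4611 progenitors none of these genes was detected, and the hindbrain group, with 15 and 9 cells, was too small for the tests. Over all progenitors PAX2 and PAX8 had 0 UMIs, and PAX5 had 4 in embryo 1 and 0 in embryo 2. The midbrain or isthmus group therefore rests almost wholly on EN1, EN2, PAX3 and PAX7. In it, 228 and 178 cells had PAX3 or PAX7 alone, against 70 and 91 with EN1 or EN2 alone.

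SFRP1 belonged to progenitors far more than the other 3 genes did. Progenitors held 84.2% of its UMIs in embryo 1 and 80.6% in embryo 2, while they held 33.3% and 30.7% of all UMIs. The share in progenitors was 59.4% and 54.6% for FST and 54.0% and 45.5% for FZD10. For CNPY1 it was 49.1% in embryo 1 but 34.0% in embryo 2, close to the share of all UMIs there. These shares leave out cluster 7, which was led by DBX1, JAG1, DLL3, CDKN1C and PAX3. It had 2 radial glia markers, VIM and NES, too few to be named and so to be counted among the progenitors. Cluster 7 held a further 25.8% and 29.8% of the CNPY1 UMIs, 21.4% and 27.6% of those of FST and 20.6% and 21.9% of those of FZD10. It held only 1.63% and 1.71% of those of SFRP1, so the gap between SFRP1 and the other genes would narrow with this cluster counted. The gap would come nearest to closing for FST and would remain for FZD10 and CNPY1.

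SFRP1 was high in telencephalic progenitors and low in those of the midbrain or isthmus. Its level was 2237 CPM (2147 to 2330) in embryo 1 and 1940 CPM (1842 to 2042) in embryo 2 in the telencephalic group. It was 967 and 887 CPM in the ganglionic eminence group and 291 (269 to 314) and 284 (264 to 306) CPM in the midbrain or isthmus group. The embryos did not overlap between any of these 3 groups. The midbrain or isthmus level was uneven. Its 278 and 263 cells in the midbrain or isthmus-like sub-clusters of the progenitors (3 and 6, described further on) had 170 and 131 CPM. Its 49 and 43 cells outside sub-clusters 3, 4 and 6 had 760 and 1142 CPM. These lay in sub-clusters 0 (18 cells), 1 (19), 2 (4), 5 (13), 7 (29) and 8 (9). Sub-cluster 5 had a median of 1025 UMIs, and sub-cluster 7 was led by genes that included LHX9, SHOX2 and NEFM. Sub-cluster 8 had a median of 36.5% haemoglobin UMIs. Whether these cells were doublets or belonged to other regions was not tested. On the log2 scale, the level in the midbrain or isthmus group over the mean of both forebrain groups was -2.39 ± 0.10 (SD, n = 2 embryos), or 5.23-fold lower. The progenitors with no regional gene stood at 1875 and 1744 CPM, between the telencephalic and the ganglionic eminence groups. In the hindbrain group, embryo 1 had 1632 CPM and embryo 2 had 297 CPM, from 122 and 15 UMIs, so its place in the order is not set.

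FZD10 was low in both forebrain groups and high in the midbrain or isthmus group. It was nearly undetected in telencephalic progenitors, with 2 UMIs (1.94 CPM) in embryo 1 and 5 UMIs (6.62 CPM) in embryo 2. In the ganglionic eminence group it reached 14.3 and 10.9 CPM, and in the midbrain or isthmus group 209 (191 to 229) and 254 (235 to 275) CPM. The log2 ratio of the midbrain or isthmus group over the mean of both forebrain groups was 4.77 ± 0.12 (SD, n = 2 embryos), or 27.3-fold higher. The hindbrain group, with 214 and 317 CPM from 16 UMIs in each embryo, overlapped with the midbrain or isthmus group. Compared with both forebrain groups, the midbrain or isthmus group therefore had more of the Wnt receptor and less of the secreted Wnt binder in both embryos. The order of the forebrain groups for FZD10 was not set. Their intervals overlapped in embryo 2, at 2.15 to 15.4 CPM (telencephalic) and 6.85 to 16.6 CPM (ganglionic eminence).

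FST was detected in each of the regional groups and was highest in the midbrain or isthmus group. Its level there was 216 (198 to 236) and 238 (219 to 258) CPM. It was 64.0 and 50.3 CPM in the telencephalic group and 53.6 and 40.2 CPM in the ganglionic eminence group, and the embryos of these last groups overlapped. The log2 ratio was 2.14 ± 0.36 (SD, n = 2 embryos), or 4.39-fold higher, with 1.88 in embryo 1 and 2.39 in embryo 2. The embryos differed more in this ratio than in those of the other 3 genes, but those of FZD10 and CNPY1 rest on few forebrain UMIs. Both embryos had the higher FST level in the midbrain or isthmus group.

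CNPY1 was also highest in the midbrain or isthmus group. Its level in the midbrain or isthmus group was 117 (104 to 132) and 114 (101 to 128) CPM. The telencephalic group had 4 UMIs in embryo 1 and 0 UMIs in embryo 2, where a count of 0 allows up to 3.97 CPM (3 UMIs). The ganglionic eminence group had 5 and 13 UMIs, or 2.98 and 6.46 CPM. The log2 ratio was 5.12 ± 0.04 (SD, n = 2 embryos), or 34.7-fold higher. Over the ganglionic eminence group alone it was 5.30 in embryo 1 and 4.14 in embryo 2. With so few forebrain UMIs, the SD of 0.04 understates the uncertainty of this ratio. CNPY1 and FZD10 could not be ranked by their ratios, since with at least 2 gate UMIs that of FZD10 was 5.50 and that of CNPY1 was 4.64. No CNPY1 UMI was found in the hindbrain group, which at its depth allows up to 40.1 CPM in embryo 1 and 59.4 CPM in embryo 2. Both limits lie above the 14.1 and 12.7 CPM of the progenitors with no regional gene, so a difference between these groups was not detectable at this depth.

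**Figure D1:**
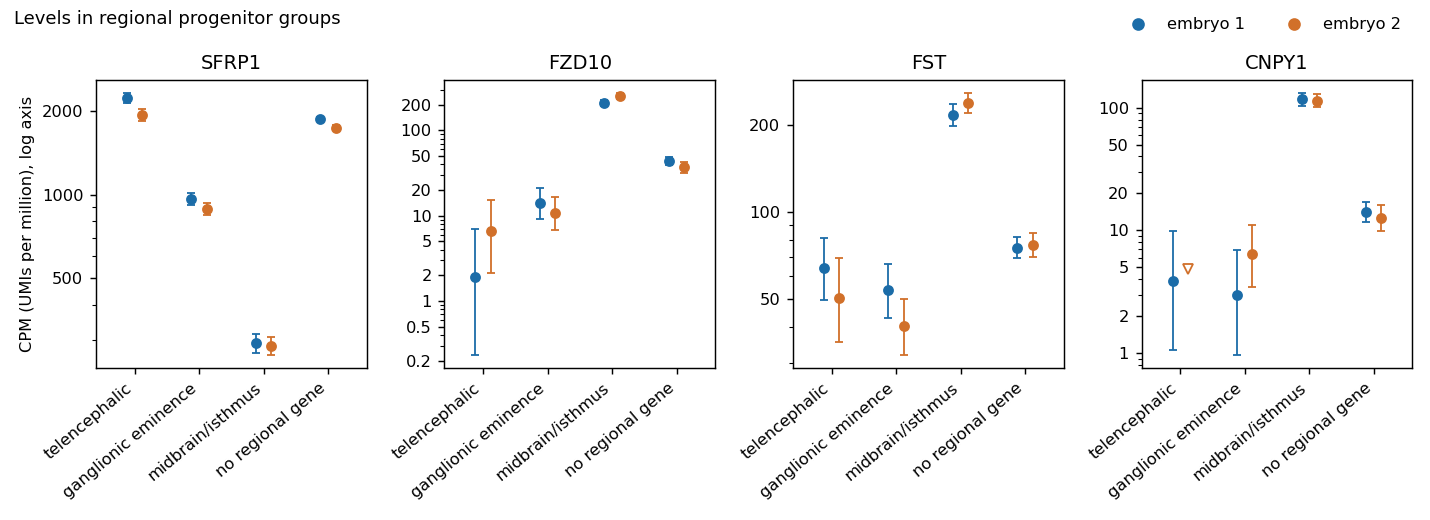
Level of SFRP1, FZD10, FST and CNPY1 (CPM, log axis with its own range in each panel) in 4 regional progenitor groups; points are single embryos, bars are exact 95% Poisson intervals and the open triangle is the upper interval bound of a count of 0. SFRP1 falls from 2237 and 1940 CPM in the telencephalic group to 291 and 284 CPM in the midbrain or isthmus group, where the other 3 genes are at their highest of the groups plotted.

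The position of CNPY1 in the genome gives context to these levels. In the numbering of gene models of the TS_2.0 annotation, CNPY1 lies on chromosome 6 between RBM33 and EN2, and the coding genes of the RefSeq annotation of another tree shrew assembly (TupChi_1.0) have the same neighbours. EN2 is 1 of the genes by which midbrain or isthmus progenitors were recognised. Whether reads of one of these adjacent genes were counted for the other was not tested. FST lies on chromosome 11 between NDUFS4 and MOCS2 in both annotations, SFRP1 on chromosome 20 and FZD10 on chromosome 23 of TS_2.0. The neighbours of SFRP1 and FZD10 differed between the annotations. SFRP1 lay between BAZ2B and ANKK1 in TS_2.0 but between GOLGA7 and ZMAT4 in RefSeq. FZD10 lay between a model without a gene name and NEDD4 in TS_2.0, but between PIWIL1 and LOC102503351 in RefSeq. The cause was not tested.

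Shares of cells were compared after each cell was thinned to 2000 UMIs. FZD10 was then detected in 31.4% and 32.7% of midbrain or isthmus progenitors against 0.741% and 2.20% of telencephalic ones. CNPY1 was detected in 15.3% and 21.4% against 0.741% and 0%, and FST in 30.3% and 30.9% against 15.6% and 5.49%. SFRP1 was detected in 85.9% and 86.8% of telencephalic progenitors and in 28.9% and 24.3% of those of the midbrain or isthmus. Without thinning, the shares in the midbrain or isthmus group were 64.8% and 60.6% for FZD10, 28.5% and 39.1% for CNPY1, 54.5% and 56.7% for FST, and 40.9% and 36.3% for SFRP1, at medians of 5343 and 5430 UMIs. Erythroid cell-like cells, which should lack all 4 genes, served as a guide to free RNA. They held more UMIs per cell than the progenitors, so their thinned shares can understate the free RNA in progenitors. After thinning, 3.06% and 2.65% of them had a UMI of SFRP1, 0.533% and 0.885% of FZD10, 0.133% and 0.442% of FST, and 0.266% and 0% of CNPY1. Without thinning, at medians of 12460 and 14320 UMIs, these shares were 11.4% and 8.23% for SFRP1, 1.16% and 1.73% for FST, and 1.16% and 0.433% for CNPY1, and FZD10 had 31 and 5 UMIs in 774 and 231 cells. The telencephalic shares of FZD10 and CNPY1 rest on at most 2 thinned cells of 135 and 91, too few to be set apart from the erythroid cell-like ones.

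Sub-clusters of the progenitors, found without the 4 genes and without the pathway genes below, gave a further view of the 4 genes. Both sub-clusters recognised as midbrain or isthmus-like (3 and 6) were marked by EN2, PAX3, PAX7 and OTX2. Each also had 3 diencephalon markers (IRX1, IRX2 and IRX3 in sub-cluster 3, and IRX2, IRX3 and DBX1 in sub-cluster 6), and the name follows the region with more markers. In sub-cluster 3, SFRP1 was at 155 and 97.6 CPM, FZD10 at 203 and 309 CPM, FST at 259 and 301 CPM and CNPY1 at 95.2 and 98.8 CPM. Sub-clusters 0 and 1, whose markers FEZF2 and PAX6 were too few to name them, held most progenitors with no regional gene (1071 and 705 cells). SFRP1 was highest there, at 2361 and 2061 CPM in sub-cluster 0 and at 2274 and 2079 CPM in sub-cluster 1, and these sub-clusters could not be ordered because their embryos overlapped. The ganglionic eminence-like sub-cluster 2 had the lowest levels of FST (39.9 and 26.3 CPM) and CNPY1 (1.02 and 1.92 CPM) of the 9 sub-clusters in each embryo. These ranks are not set. FST overlapped with sub-cluster 7 (114 and 39.6 CPM), and the CNPY1 levels rest on 1 and 3 UMIs.

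Sub-cluster 4 carried all 4 genes at intermediate or high levels. It was led by CP, SULF1, SPON1, BCAN, SPARCL1, VCAM1 and CLU, and it stayed unnamed because no region had more than 1 marker in it (ZIC4 of the cerebellum and IRX3 of the diencephalon). Of its cells 30.4% were dividing, the lowest share of any sub-cluster. SFRP1 was at 1021 and 875 CPM, FZD10 at 149 and 151 CPM, FST at 77.6 and 87.7 CPM and CNPY1 at 69.8 and 67.2 CPM. The embryos of sub-cluster 4 did not overlap with those of sub-cluster 6 for FZD10 and FST, whereas they did for CNPY1 (67.6 and 83.7 CPM in sub-cluster 6). Within sub-cluster 4, FZD10 and SFRP1 were mostly detected in different cells. In thinned cells, FZD10 was detected in 6.90% and 6.19% of the cells with an SFRP1 UMI, against 32.0% and 32.7% of the cells without one. CNPY1 showed no such split, with 10.3% and 9.73% of SFRP1 cells against 8.25% and 12.7% of the others.

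Within the midbrain or isthmus group, CNPY1 followed EN1 and EN2 rather than PAX3 and PAX7, and FZD10 did the reverse. CNPY1 was at 184 (145 to 231) and 241 (200 to 287) CPM in cells with a UMI of EN1 or EN2 alone, and at 44.5 (33.7 to 57.7) and 45.3 (33.6 to 59.8) CPM in cells with PAX3 or PAX7 alone. Cells with both kinds of gene had 220 and 127 CPM. FZD10 was at 132 and 119 CPM with EN1 or EN2 alone and at 264 and 277 CPM with PAX3 or PAX7 alone. Cells with both kinds differed between the embryos, with 150 and 308 CPM of FZD10. SFRP1 was higher with EN1 or EN2 alone (510 and 451 CPM) than with PAX3 or PAX7 alone (232 and 276 CPM). FST did not separate these cells, since its 234 and 189 CPM with EN1 or EN2 alone overlapped with 224 and 280 CPM with PAX3 or PAX7 alone. These classes rest on 70 and 91 cells with EN1 or EN2 alone and 228 and 178 cells with PAX3 or PAX7 alone, and a cell can lack a UMI of a gene that it expresses. EN2 is also the genomic neighbour of CNPY1, and a mixing of their reads was not tested. Within this group CNPY1 was at 229 and 204 CPM in sub-cluster 4 against 91.6 and 105 CPM in sub-clusters 3 and 6. The part of cell state in the split was not tested.

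**Figure D2:**
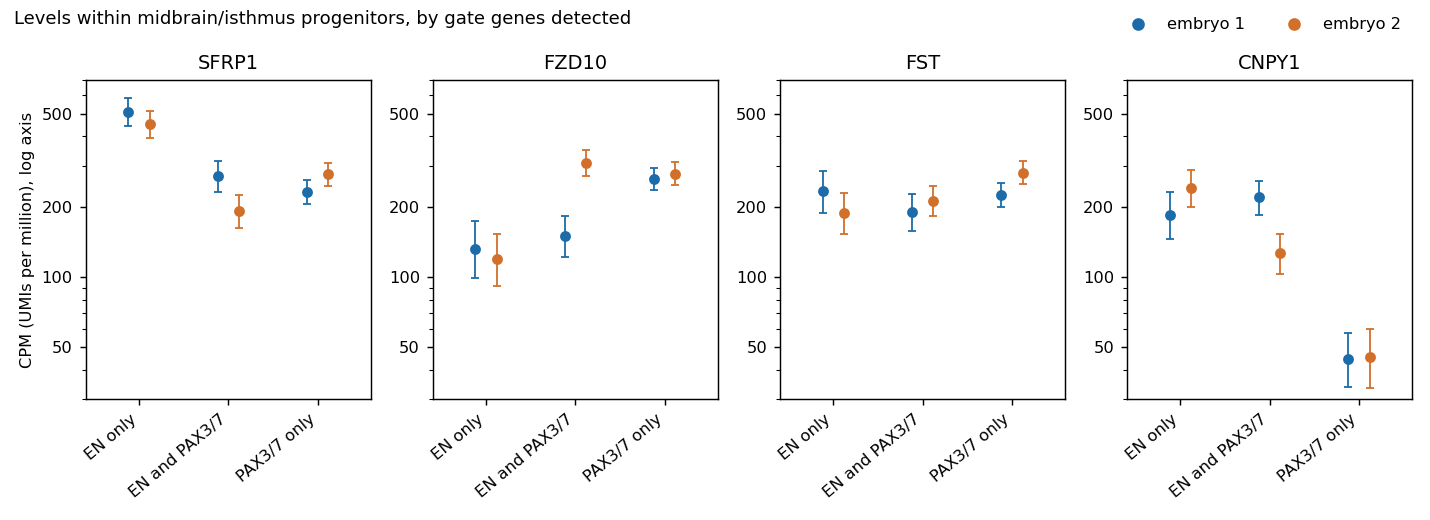
Level of the 4 genes (CPM, log axis with the same range in each panel) in midbrain or isthmus progenitors split by the regional genes detected in each cell; points are single embryos and bars are exact 95% Poisson intervals. CNPY1 drops from 184 and 241 CPM with EN1 or EN2 alone to 44.5 and 45.3 CPM with PAX3 or PAX7 alone, while FZD10 rises from 132 and 119 CPM to 264 and 277 CPM.

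The genes also differed in which of them were found together in single midbrain or isthmus progenitors. In thinned cells, FST was detected in 34.2% and 38.9% of the cells with an FZD10 UMI, against 28.5% and 27.0% of the cells without one. SFRP1 went the other way, with 23.4% and 9.73% of FZD10 cells against 31.4% and 31.3% of the rest. CNPY1 was seen in 24.5% of SFRP1 cells against 11.6% of the rest in embryo 1, and in 22.6% against 21.0% in embryo 2. Thinned cells carry few UMIs of these genes, so these shares describe detection and not the share of cells that make both proteins.

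Over all 16 clusters, progenitors and others, the 4 genes had distinct patterns. FZD10 was highest in cluster 10 (196 and 276 CPM), a dividing cell-like cluster of the progenitors whose leading genes included FZD10 itself. It was second in cluster 7 (146 and 157 CPM), which was not counted among the progenitors. FST had the same pair in the same order, with 220 and 274 CPM in cluster 10 and 197 and 205 CPM in cluster 7. CNPY1 stood first in cluster 7 (89.8 and 113 CPM), which overlapped with cluster 10 (73.4 and 93.1 CPM). It then reached 35.0 and 36.5 CPM in the inhibitory neuron-like cluster, marked by GATA3 and OTX2, and 29.8 and 35.0 CPM in the midbrain or thalamus excitatory neuron-like cluster. FZD10 persisted in the same neuron-like clusters (38.0 and 48.6 CPM, and 48.3 and 60.4 CPM). In cortical excitatory neuron-like cells, marked by NEUROD6 and TBR1, the pattern was inverted. SFRP1 was at 546 and 564 CPM there and FST at 88.2 and 61.9 CPM, while FZD10 was at 5.47 and 3.24 CPM and CNPY1 at 0.390 and 3.24 CPM.

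Some non-neural clusters also held SFRP1 or FZD10. Fibroblast-like cells had 518 CPM of SFRP1 in both embryos, close to cortical excitatory neuron-like cells. Choroid plexus-like cells had 226 and 276 CPM of SFRP1. Their 36.8 and 57.1 CPM of FZD10, from 8 and 13 UMIs, overlapped with the 35.3 and 41.1 CPM of fibroblast-like cells. Endothelial cell-like cells had 57.0 and 59.8 CPM of FZD10, from 13 and 17 UMIs in 45 and 42 cells, which overlapped with the midbrain or thalamus excitatory neuron-like cluster. No CNPY1 UMI was found in them. Microglia-like cells had 113 and 17.1 CPM of SFRP1, from 26 and 5 UMIs in 92 and 65 cells, so their embryos differed widely. The erythroid cell-like cluster was lowest in both embryos for SFRP1 (28.9 and 14.8 CPM) and FZD10 (3.39 and 1.58 CPM), and its 2.95 and 1.26 CPM of FST overlapped with the endothelial cell-like cluster.

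**Figure D3:**
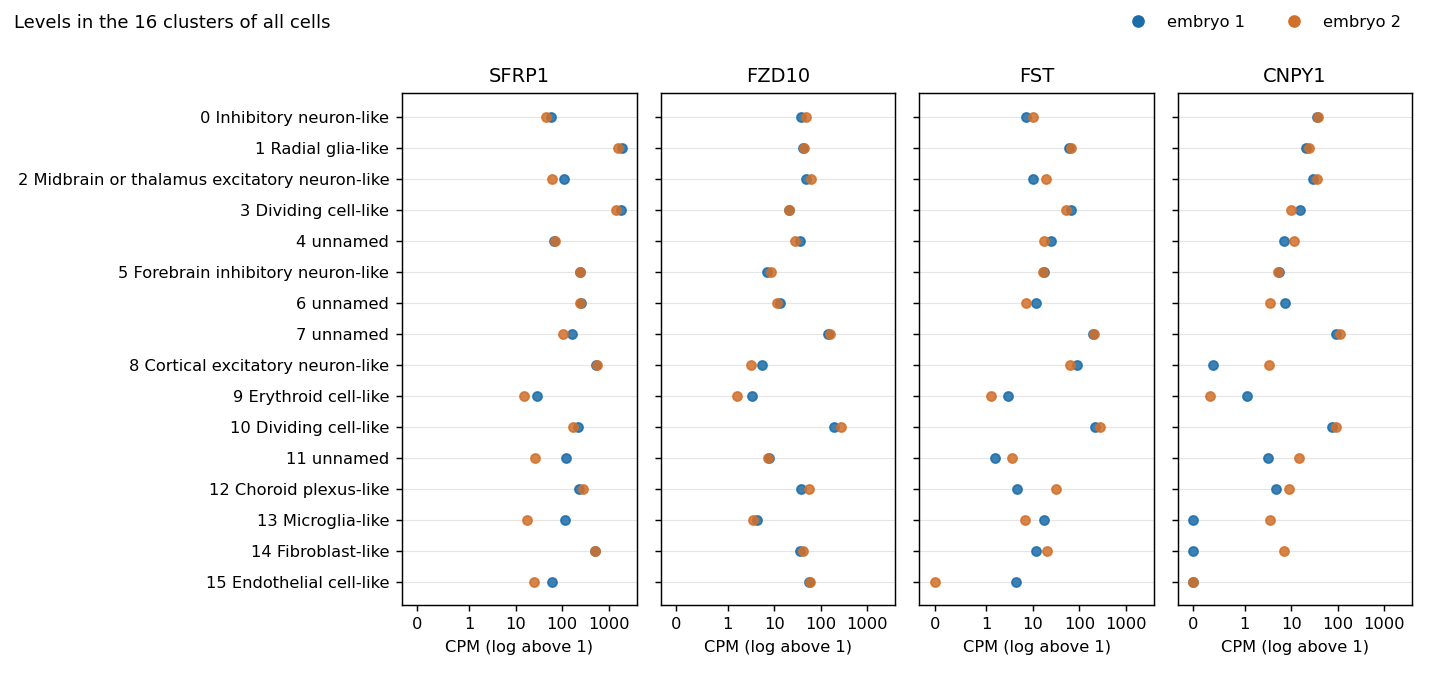
Level of the 4 genes (CPM, linear up to 1 and logarithmic above) in the 16 clusters of all cells; each point is 1 embryo, and clusters are numbered by size. SFRP1 peaks in the radial glia-like cluster 1 (1911 and 1620 CPM) and the dividing cell-like cluster 3, FZD10 and FST peak in cluster 10, and CNPY1 peaks in cluster 7.

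Genes were ranked by how closely their level followed each member over the 16 clusters, by Pearson's r of log2(CPM + 10) in each embryo, among 7909 genes with at least 100 UMIs in each embryo. The r values describe clusters that share libraries and depth, and carry no p-value. SFRP1 was followed most closely by SLC22A4 (r = 0.870 and 0.897), ARHGEF26, ZNF483 and JPH1. Among the regional progenitor groups SLC22A4 did not follow SFRP1. It had 36.9 and 39.2 CPM in the midbrain or isthmus group against 29.1 and 34.4 CPM in the telencephalic group. ARHGEF26, ZNF483 and JPH1 were higher in the telencephalic group than in the midbrain or isthmus group. FZD10 was followed by ZNRF3 (0.919 and 0.899), FBXL17, CNPY1 (0.768 and 0.787), ZNF800 and AEBP2. Of these, AEBP2 overlapped between the midbrain or isthmus group (9.44 and 5.71 CPM) and the telencephalic group (4.85 and 6.62 CPM), and the others were higher in the former. FST was followed by MASP1 (0.945 and 0.942), BOC, JAM3, HES5 and FAM181B. CNPY1 was followed by IRX5 (0.915 and 0.927), HS3SB, CDH8, PAX3 (0.917 and 0.864) and IRX3. Among the 4 genes, SFRP1 and FZD10 had r values of 0.0277 and 0.118, near 0. Among the regional progenitor groups, by contrast, the midbrain or isthmus group was low for SFRP1 and high for FZD10 against both forebrain groups.

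The other genes of the 3 pathways were then compared between midbrain or isthmus progenitors and the mean of the telencephalic and ganglionic eminence progenitors, with UMIs summed per embryo and group and the quasi-likelihood test of edgeR (embryo as a block, Benjamini-Hochberg adjustment over 7564 genes, threshold 0.05). Of all genes tested, 7.50% were higher and 5.71% were lower in the midbrain or isthmus group. All 4 members passed the filter on low counts and had log2 folds in this fit, printed without a p-value because they were chosen from these libraries, of -2.25 for SFRP1, 5.06 for FZD10, 2.15 for FST and 5.13 for CNPY1. The Wnt list had 24 genes tested of 65 found in the annotation, and 11 rose and 1 fell, with a median log2 fold of 0.52 against 0 for all genes. Low genes that are present in 1 region only pass the filter more easily, and the number that rose was 7 with DESeq2 and 8 without the block. Both of these settings kept that filter, and without it 14 of 55 Wnt genes tested rose and 2 fell.

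Among Wnt ligands, WNT3 had 17 UMIs in each embryo's midbrain or isthmus group and 1 UMI in both forebrain groups together (adjusted p = 1.37e-04 by edgeR). Its summed ratio was 38.9 with a 95% counting interval of 6.53 to 1583. WNT5A, a ligand best known for signalling without β-catenin, also rose (log2 fold 0.69, SE 0.22, edgeR adjusted p = 0.0354). Its 21.0 and 28.1 CPM lay between the ganglionic eminence group (8.94 and 5.96 CPM) and the telencephalic group (30.1 and 34.4 CPM), so this call rests on the ganglionic eminence. WNT5A was not called with DESeq2 or without the block. WLS, the carrier that Wnt proteins need to leave the cell, rose by 3.31 on the log2 scale (SE 0.15, edgeR adjusted p = 7.40e-14) over the mean of both forebrain groups. Its level was 235 and 189 CPM, against 29.2 and 25.8 CPM in the ganglionic eminence group alone.

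Of the other Frizzled receptors, FZD2 and FZD3 could be tested. FZD3 rose by 0.44 on the log2 scale (SE 0.14, edgeR adjusted p = 0.0333) and FZD2 had a log2 fold of -0.05 (SE 0.11, edgeR adjusted p = 0.839). FZD5, FZD6, FZD7, FZD8 and FZD9 were too low to be tested, with at most 8 UMIs over both embryos in any of the 3 groups. SFRP2, the only relative of SFRP1 that passed the filter, had a log2 fold of -0.42 (SE 0.24, edgeR adjusted p = 0.293), whereas FRZB and SFRP5 had 0 UMIs in these groups. ZNRF3, a membrane ligase that removes Frizzled receptors, rose by 1.00 on the log2 scale (SE 0.17). LGR4, a receptor for R-spondins, rose by 0.59, and DKK3, a member of the Dickkopf family, by 1.80. FZD3 and LGR4 were not called with DESeq2 or without the block.

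Of the 12 Wnt effectors and targets tested, 4 rose and 1 fell. AXIN2, a common target of β-catenin, was at 26.2 and 25.3 CPM in the midbrain or isthmus group against 4.85 and 5.29 CPM in the telencephalic group, and rose by 2.13 on the log2 scale (SE 0.26, edgeR adjusted p = 2.12e-06). NKD1, an inhibitor induced by the pathway, rose by 2.30 (SE 0.55) but was not called with DESeq2. CTNNB1, which encodes β-catenin, rose by 1.18 (SE 0.06) over the mean of both forebrain groups. Its level was 543 and 541 CPM, against 271 and 248 CPM in the telencephalic group alone. The D-type cyclins moved in opposite directions, with CCND1 higher by 1.27 (SE 0.07) and CCND2 at a log2 fold of -0.82 (SE 0.06). APCDD1 and LEF1 did not pass the test.

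The FGF list had 12 genes tested of 35 in the annotation, and 5 rose and 0 fell, with a median log2 fold of 0.46. With DESeq2 or without the block 2 rose, FGF8 and FGFR2. Without the filter on low counts 6 of 33 tested rose and 0 fell. FGF8, the signal of the isthmus, had 41 and 18 UMIs in the midbrain or isthmus group and 4 UMIs in both forebrain groups together (log2 fold 4.13, SE 0.65, edgeR adjusted p = 6.62e-05). FGF17 rose by 2.02 (SE 0.53), FGFR2, a receptor, by 0.92 (SE 0.18) and SPRED3, an inhibitor of the pathway, by 1.05 (SE 0.31). EGR1, an immediate early gene, rose by 0.27. For FGFR2 and EGR1 the midbrain or isthmus group overlapped with the telencephalic group (for FGFR2, 42.0 and 37.1 CPM against 41.7 and 23.8 CPM), so these calls rest on the ganglionic eminence group. The relatives of CNPY1 that could be tested did not pass the threshold, with log2 folds of 0.49 (SE 0.30, edgeR adjusted p = 0.334) for CNPY3 and 0.24 (SE 0.39, edgeR adjusted p = 0.777) for CNPY4.

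The activin and BMP list, to which FST belongs, showed no single direction. Of 14 genes tested of 50 in the annotation, 2 rose and 3 fell, with a median log2 fold of -0.27, and the 3 that fell were not called with DESeq2, without the block or without the highest doublet scores. FSTL1, a follistatin-like secreted protein, rose by 1.10 (SE 0.16, edgeR adjusted p = 2.65e-05), whereas FSTL5 had a log2 fold of -0.48 (SE 0.14, edgeR adjusted p = 0.0216). ID2, which responds to BMPs, rose by 1.21 (SE 0.28) but was not called with DESeq2. The signal transducers SMAD2 and SMAD9 had log2 folds of -0.98 (SE 0.28) and -1.25 (SE 0.37). The activin subunit gene INHBA, whose product FST binds, had 0 and 3 UMIs in the midbrain or isthmus group and was not tested.

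Dividing progenitors, with at least 2 of 10 division genes detected, were then set beside the others. FST had ratios of opposite sign in different regions. In the midbrain or isthmus group it was at 226 and 248 CPM in dividing cells and at 87.4 and 76.9 CPM in non-dividing cells, a log2 ratio of 1.37 in embryo 1 and 1.69 in embryo 2. In the ganglionic eminence group it was at 49.4 and 33.0 CPM in dividing cells and at 99.7 and 98.2 CPM in non-dividing cells, log2 ratios of -1.01 and -1.57. CNPY1 in the midbrain or isthmus group was lower in dividing cells in both embryos, at 114 and 102 CPM against 157 and 308 CPM. SFRP1 was lower there too, at 255 and 278 CPM against 740 and 392 CPM. FZD10 overlapped, at 202 and 254 CPM against 297 and 259 CPM. The non-dividing cells were few, and FST had 15 and 11 UMIs in those of the midbrain or isthmus group.

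Division moved together with cell state and depth in these groups. Of the 73 non-dividing midbrain or isthmus progenitors, 63 belonged to sub-cluster 4, against 26 of the 649 dividing ones. Midbrain or isthmus progenitors of sub-cluster 4 had 46.7 and 91.9 CPM of FST, and those of sub-clusters 3 and 6 had 258 and 285 CPM. In the ganglionic eminence group, 60 of 84 non-dividing cells belonged to sub-cluster 0, against 66 of 602 dividing ones. Non-dividing cells of the midbrain or isthmus group had medians of 3722 and 3918 UMIs, and dividing ones had 5560.5 and 5552. The part of cell state and depth in these differences was not tested.

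In the fit over all regional groups (edgeR, embryo and region as terms, 7372 genes), 12.9% of genes were higher and 8.14% were lower in dividing cells. With RLE size factors the called genes divided into 786 higher and 748 lower, against 950 and 600 with TMM. The members' log2 folds were -0.14 (SE 0.11) for SFRP1, 0.23 (SE 0.16) for FZD10, 0.55 (SE 0.19) for FST and -0.56 (SE 0.19) for CNPY1, and that of FZD10 ranged from -0.04 to 0.54 over the alternatives. Of 23 Wnt genes tested, 1 rose and 4 fell in dividing cells. The one that rose was CTNNB1, with a log2 fold of 0.37 (SE 0.10). Those that fell were APCDD1 (-1.62), DKK3 (-1.42), WNT5A (-1.41) and WLS (-0.61). Of 14 FGF genes tested, 0 rose and 4 fell, namely FGF17 (-1.45), FGF8 (-1.08), CNPY4 (-0.88) and FGFR3 (-0.62). Of these FGF genes 0 were called without embryo 1 or with at least 2 gate UMIs, and 1 without embryo 2. Of the Wnt genes 0 rose without embryo 2 or with at least 2 gate UMIs. Of 15 activin and BMP genes, FSTL1 (-0.44) and FSTL5 (-0.56) fell, and only FSTL5 was called when either embryo was left out.

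**Figure D4:**
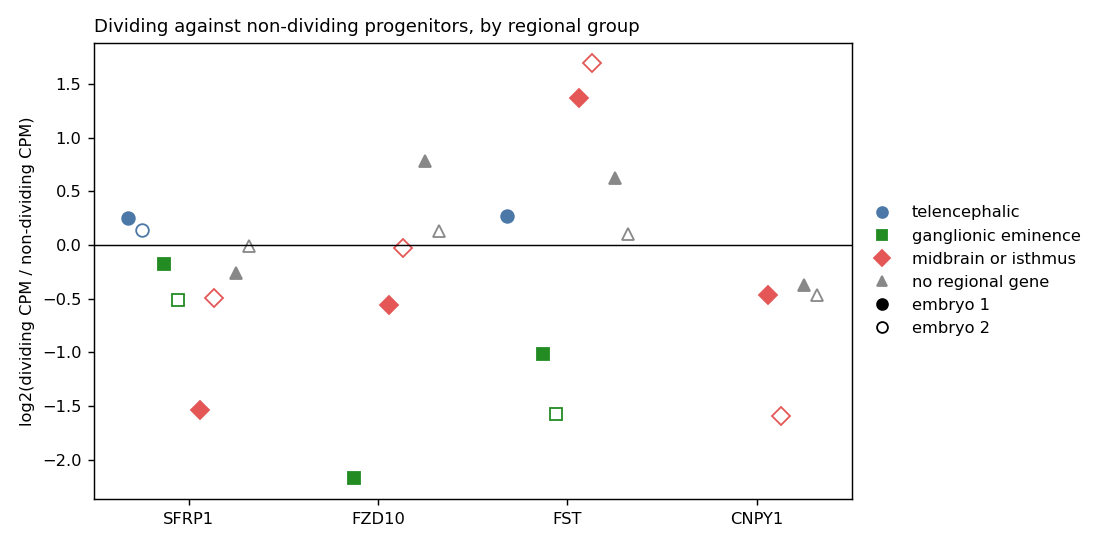
Log2 ratio of the level in dividing over non-dividing progenitors (y axis) for the 4 genes in each regional group; filled symbols are embryo 1, open symbols are embryo 2, and ratios with 3 UMIs or fewer on either side are left out. FST lies at 1.37 and 1.69 in the midbrain or isthmus group and at -1.01 and -1.57 in the ganglionic eminence group.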

How the data were processed

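Each of 2 tree shrew embryos gave 1 droplet library of whole-brain cells (10x v3 chemistry). The authors checked read quality with fastp and mapped the reads with Cell Ranger 3.1.0 to TS_2.0, and Seurat 3 is also named in the submitters' processing notes. They deposited raw UMI counts per gene model and barcode, 41868023 in embryo 1 (9241 barcodes) and 38077767 in embryo 2 (9685 barcodes), without normalization.

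Cells with at least 200 genes were kept, models of 1 name were summed, and 2000 variable genes without the members and the pathway genes gave 20 principal components. A graph of 20 neighbours (scikit-learn 1.9.0) was clustered by the Leiden method (leidenalg 0.10.2, resolution 0.5). A cluster was named "-like" from 3 or more markers that 10% or more of its cells held at 2 or more times the level elsewhere. A regional gene needed 1 UMI, cells with genes of different regions (48) were left out, and cells with telencephalic and ganglionic eminence genes joined the latter group. UMI sums per embryo and group with at least 20 cells per embryo were compared in R 4.3.3 by edgeR 4.0.16 (TMM factors, filterByExpr, quasi-likelihood test, Benjamini-Hochberg adjustment, threshold 0.05), with the embryo as a block because the groups of 1 number came from the same animal. The block takes out the shift between the embryos, so p-values between regions are set against how far group differences vary between 2 animals (3 residual degrees of freedom). For each gene edgeR moderates this spread towards that of all genes tested. A small p-value therefore rests in part on spread borrowed from other genes, and not on 2 animals for that gene alone. The division fit has 10 residual degrees of freedom. These also hold differences of the division effect between regions of the same animal. An SE was worked back as the size of the log2 fold divided by the square root of its F statistic. It is symmetric, unlike the counting interval given for a low gene such as WNT3. Without the embryo block 480 instead of 999 genes were called between regions. On simulated data with 200 genes changed 4-fold the test recovered 97.4% (7515 genes, 3.14% of calls false) between regions and 98.9% (7004 genes, 3.24% false) for division. The simulated counts had a common dispersion, no embryo effect and no other difference between groups, so these rates need not hold for the real data. Doublets were kept, since Scrublet (scanpy 1.11.5) called too few cells to be of use.

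Genes named are the members, their families, per pathway and contrast the 3 largest and 3 smallest folds past the threshold, and the 5 genes most like each member, of which 1 for SFRP1 is not reported here, as is 1 gene that set the telencephalic group. EGR1, LGR4, SPRED3 and others past the threshold were named after their values were seen. The members, lists and tests were chosen with earlier results of these data known. The alternatives were other minima of genes and gate UMIs, the highest Scrublet scores left out (0.8% per 1000 cells), a resolution of 1.0, sub-clusters as groups, progenitors of 1% or more haemoglobin UMIs removed, means over cells, RLE size factors, no filter, DESeq2 1.42.0, no block, and each embryo left out. The ganglionic eminence group alone as denominator, and progenitors without sub-clusters 5, 7 and 8, were added after seeing the data. Sequences of the members were not used here.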

Additional observations from a re-analysis of the deposited data

Results flagged for a closer look

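The difference between dividing and non-dividing progenitors had opposite signs in both embryos between some regional groups. None of these differences was tested. For FST, the mean log2 ratio of the midbrain or isthmus group minus that of the ganglionic eminence group was 2.82, and that of progenitors with no regional gene minus the ganglionic eminence group was 1.66. For SFRP1, the telencephalic group (0.26 and 0.14) exceeded the ganglionic eminence group (-0.18 and -0.51) by 0.55, the midbrain or isthmus group (-1.54 and -0.50) by 1.22 and the progenitors with no regional gene (-0.26 and -0.01) by 0.34. For FZD10, progenitors with no regional gene (0.78 and 0.13) exceeded the midbrain or isthmus group (-0.55 and -0.03) by 0.74. Several of these ratios are near 0 in 1 embryo.

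Barcodes with under 200 genes, which no comparison used, held UMIs of the members above the limit that a count of 0 allows. SFRP1 had 40 UMIs in 833 such barcodes of embryo 1 (10.9 CPM) and 9 UMIs in 358 of embryo 2 (3.93 CPM), and FZD10 had 8 UMIs in embryo 1 (2.18 CPM).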

How the results depend on the processing

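The ratio of the midbrain or isthmus group over both forebrain groups kept its sign for all 4 genes under all 44 alternatives run on them. Of these, 26 moved it by less than 1 SD of the 2 embryos. For CNPY1 that SD was 0.04 and rests on few forebrain UMIs, so even small shifts exceeded it. With 2 embryos, leaving 1 out always moves the mean by less than 1 SD, so those alternatives were bound to be among the 26. For SFRP1 (-2.39 as reported) it moved to -2.70 without the highest Scrublet scores, -1.90 with sub-clusters as groups, -2.54 without sub-clusters 5, 7 and 8, and -1.69 over the ganglionic eminence alone. For FZD10 (4.77) it moved, in the same order, to 5.65, 5.10, 5.33 and 4.21, to 5.50 with at least 2 gate UMIs and to 5.05 as a mean over cells. For FST (2.14) it moved to 3.01 with sub-clusters. For CNPY1 (5.12) it moved to 5.28, 6.01, 5.23 and 4.72, to 4.64 with 2 gate UMIs, 5.31 as a mean over cells and 5.19 without cells with at least 1% haemoglobin UMIs. No dorsal telencephalic sub-cluster was named, so the sub-cluster ratio uses the ganglionic eminence alone.

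Between regions 999 genes were called, 497 with DESeq2 and 480 without the replicate block. At least 2 gate UMIs left under 20 telencephalic cells per embryo, and leaving out an embryo left no residual degrees of freedom, so neither was run there. For division 1550 genes were called, and 666 to 674 when 1 embryo was left out and the spread came from the groups of the other. Without the block 1301 genes were called for division. The causes were not tested. Telencephalic levels of FZD10 and CNPY1 rest on 0 to 5 UMIs per embryo, which limits their ratios.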
